A study of Mus musculus with 30 samples.

Results

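The genes described here are 10 genes of sulphur amino acid and taurine metabolism: Csad, Cdo1, Cbs, Cth, Gnmt, Bhmt, Mat1a, Ahcy, Gclc and Slc6a6. They were taken as the probes to which the annotation of the array platform gives 1 of these symbols, which found all 10 genes with 16 probes, of 19406 named genes and 46643 probes in all. The study measured liver and subcutaneous fat on Illumina bead arrays in male mice aged 4 months that had been starved overnight. The growth hormone receptor was removed altogether (KO), mutated within Box1, truncated at amino acid 391, truncated at amino acid 569, or left intact (wild type, WT). Each of the 5 genotypes has 3 arrays in each of the 2 tissues, so 30 arrays were used. The labels name neither a strain nor any allele beside the receptor, and they do not say whether an array stands for 1 animal or a pool, so the p-values tell only how these samples spread, and part of that spread may be technical. Genotypes are named as the arrays are labelled.

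As background, the liver activates methionine to S-adenosylmethionine with the synthetase Mat1a. Methyl transfer, by Gnmt among others, leaves S-adenosylhomocysteine, which Ahcy splits to homocysteine. Bhmt returns homocysteine to methionine, while Cbs and then Cth lead its sulphur to cysteine. Cysteine goes into glutathione through Gclc, or is oxidised by Cdo1 to cysteine sulphinate, which Csad decarboxylates on the way to taurine. Mouse liver conjugates bile acids with taurine, and Slc6a6 carries taurine into cells. Of the receptor, Box1 binds the kinase JAK2. Truncation at 391 takes away the docking tyrosines of STAT5, and truncation at 569 takes away some of these.

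The deposited value of a probe is its ratio to that probe's median across the 15 liver or the 15 fat arrays, so 1 is the tissue's median and no level is left by which genes or tissues could be compared. In these bulk tissues, fewer cells of a type and less RNA per cell cannot be told apart. The array medians lay between 0.98 and 1.01. Igf1, a liver target of growth hormone that serves as a check of the labels, had liver ratios of 0.68 to 1.15 in KO, 0.44 to 0.57 in Box1, 0.43 to 0.61 in 391, 11.24 to 14.44 in 569 and 18.39 to 20.72 in WT. A Ghr probe stood at 0.23 to 0.30 in Box1 livers and at 1.09 to 1.51 in KO livers, against 0.92 to 1.27 in WT livers. Another Ghr probe stood at 0.96 to 1.28 in Box1 livers and at 0.81 to 1.40 in KO livers, against 0.61 to 1.14 in WT livers. Neither probe was low in the livers labelled KO, only the first was low in those labelled Box1, and where the probes lie relative to the altered part of the receptor is not known. Igf1 was low in KO and Box1 alike, so which arrays are KO and which Box1 rests on the labels alone, in every comparison of either. Liver replicates 2 and 3 of 391 held pancreatic transcripts (13 and 11 of 15 pancreatic markers above 1 on the log2 scale, 0 of 15 in every other liver array), and 391 replicate 2 also held skeletal muscle transcripts (9 of 12 markers). The 391 and KO livers shared 1 slide, the 569 and WT livers shared another, and the Box1 livers lay on a slide with the Box1 fat, so that slide and genotype cannot be told apart except between KO and 391 and between 569 and WT.

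In liver, Csad fell in KO, 391 and Box1. Gnmt rose in KO by both of its probes. Ahcy rose in KO and 391 by probe 2 alone, and Bhmt in 391 by probe 1 alone. Of the 10 genes, 0 were called in 569. Where a gene has a pair of probes, the one with the larger SD over the arrays of a tissue stands for it in these counts. This rule can favour the probe that differs more between genotypes, and the other probes of Ahcy and Bhmt were called in no comparison with WT. With limma and Benjamini-Hochberg adjustment over all probes at a threshold of 0.05, 2 genes rose and 1 fell in KO against WT, while 2.43% of all named genes rose and 0.871% fell. In 391 against WT, 2 rose and 1 fell, beside 2.47% and 0.711% of all genes. In Box1 against WT, 0 rose and 1 fell, beside 1.62% and 0.484% of all genes. In 569 against WT, 0 were called and 2 had an unadjusted p under 0.05, beside 0.0155% of all genes called. The ratios of KO and WT did not overlap for 6 of the 10 genes, beside 20.7% of all genes, and those of 569 and WT did not overlap for 2 of the 10, beside 11.7%. These 4 comparisons share the 3 WT arrays. The count of called genes dropped to 1 in KO without WT replicate 2 or KO replicate 1 or 2, to 1 in 391 without WT replicate 2, and to 0 in Box1 without WT replicate 2 or 3 or any 1 of the Box1 replicates. A moderated F test of any difference among the genotypes called 3 of the 10 genes, beside 9.07% of all genes. When 391, Box1 and KO were set together against 569 and WT together, 3 genes rose and 1 fell, while 13.9% of all genes rose and 1.36% fell. Leaving out both 391 livers that held pancreatic transcripts leaves 1 array of 391, which is assumed to vary like the other genotypes. Against WT, 391 then differed by −1.996 for Csad, 0.75 for Ahcy probe 2 and 2.18 for Bhmt probe 1. The differences were 1.86 for Cth probe 1 and 1.64 for Gnmt probe 2. Against 569, Csad differed by −1.05. The genes called in this fit were not all the same as with all arrays. The median difference of the 10 genes in the pooled comparison was 0.20 on the log2 scale, against 0.04 over all genes.

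**Figure D1:**
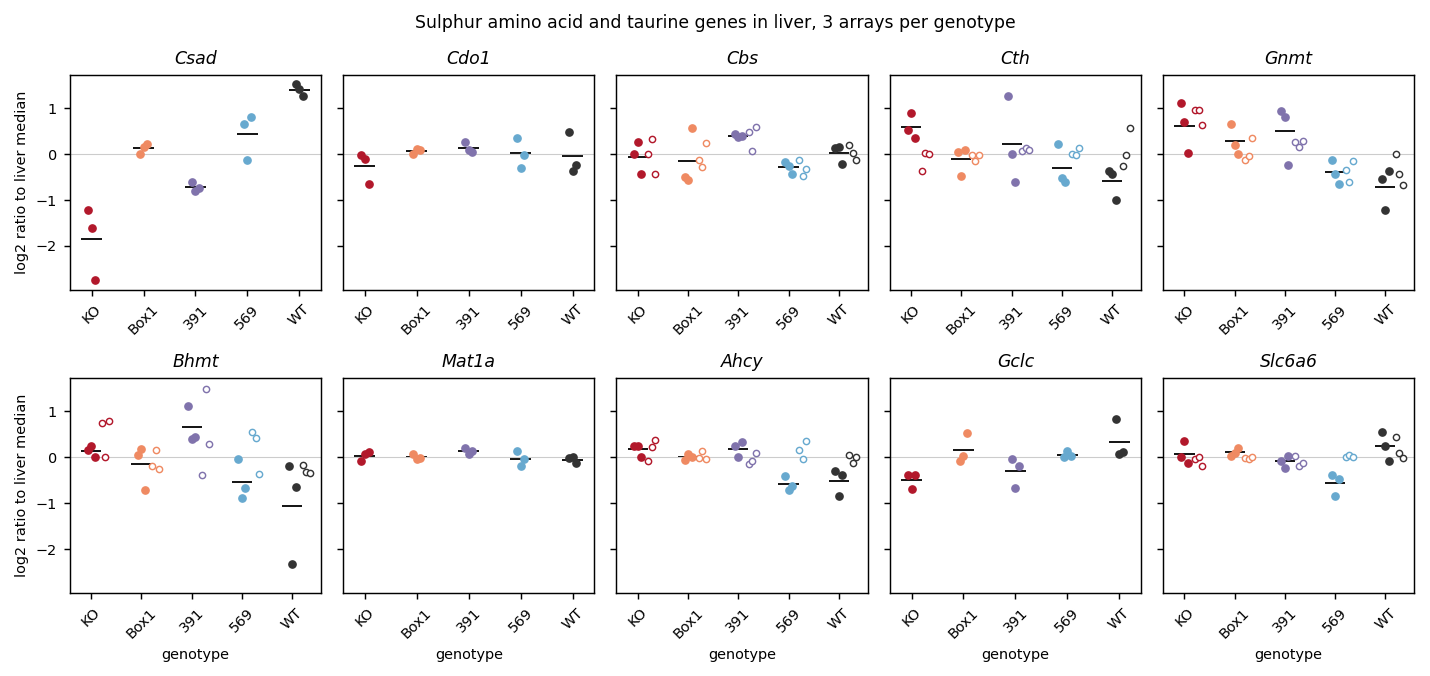
Log2 ratio to the liver median (y axis) of the 10 genes by genotype, 3 arrays each, with filled points for the probe of larger SD, open points for the other probe and bars for the mean of the filled points. Csad runs from −1.85 (mean of KO) to 1.40 (mean of WT), while Mat1a keeps within a narrow band in all genotypes.

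Csad, the decarboxylase of taurine synthesis, showed the widest spread of the 10 genes over the 15 livers. Its ratios were 0.43, 0.33 and 0.15 in KO, 1, 1.11 and 1.17 in Box1, 0.66, 0.57 and 0.60 in 391, 1.58, 0.92 and 1.74 in 569, and 2.86, 2.65 and 2.41 in WT. All 3 KO livers lay below every other liver, all 3 WT livers lay above every other liver, and of the genotypes between them the 391 livers lay below the Box1 and 569 livers, which overlapped. Gene Csad lies on chromosome 15 (GRCm38.p6, 102176997 to 102205052) and was measured by 1 probe.

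The mean log2 ratio of Csad was −1.85 ± 0.79 in KO, 0.13 ± 0.12 in Box1, −0.72 ± 0.11 in 391, 0.45 ± 0.50 in 569 and 1.40 ± 0.12 in WT (SD, n = 3 each). Against WT it fell by 3.25 ± 0.29 (SE) in KO, which is 9.50-fold (limma adjusted p = 1.4e-05). It fell by 2.11 ± 0.29 in 391, which is 4.33-fold (limma adjusted p = 0.0014). It fell by 1.27 ± 0.29 in Box1, which is 2.41-fold (limma adjusted p = 0.045). In 569 the difference was −0.95, with a 95% interval of −1.57 to −0.33, and did not pass the test (limma adjusted p = 0.49), although the ratios of the 569 and WT livers, which shared a slide, did not overlap. The KO and 391 differences kept their calls when any 1 array was left out. Without both 391 arrays that held pancreatic transcripts, Csad differed by −1.996 between 391 and WT (adjusted p = 0.023) and by −1.05 between 391 and 569 (adjusted p = 0.22). The Box1 call was lost without any 1 of the 3 Box1 or the 3 WT arrays, with differences of −1.34 to −1.21 and adjusted p of 0.087 to 0.15.

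When KO, Box1 and 391 were set against each other, Csad was called only between KO and Box1, which lay on different slides. KO stood 1.98 below Box1, or 3.94-fold (difference −1.98, limma adjusted p = 0.010), where Csad was the 1 of the 10 genes called, beside 0.247% of all genes in either direction. That call was lost without Box1 replicate 2 (−1.96, adjusted p = 0.060) and without Box1 replicate 3 (−1.93, adjusted p = 0.076). KO and 391, which shared a slide, differed by −1.14 with no overlap of their ratios, and the difference did not pass the test (interval −1.76 to −0.52, limma adjusted p = 0.19). Without KO replicate 3, the lowest of the 15 livers, it was −0.69 (adjusted p = 0.40). Between KO and 391, 0 of the 10 genes were called and 1, Csad, had an unadjusted p under 0.05, beside 0.325% of all genes called. Box1 and 391 differed by 0.84 (interval 0.22 to 1.46, limma adjusted p = 0.74), and there 0 of the 10 genes were called by limma, 3 having an unadjusted p under 0.05, beside 0.00515% of all genes called.

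The receptors truncated at 391 and at 569 differ in the stretch between those residues. The 391 and 569 livers also lay on different slides, and 391 replicates 2 and 3 held pancreatic transcripts, so receptor and slide cannot be told apart here. Csad was 2.24-fold lower in 391 than in 569 (difference −1.16 ± 0.29, limma adjusted p = 0.033). In that comparison 1 of the 10 genes, Ahcy by its probe of larger SD, rose and 1, Csad, fell, beside 7.32% and 0.582% of all genes. The Csad call was lost, and the count of called genes became 1, without 569 replicate 1 or 3 or 391 replicate 1 or 2. The Csad call was also lost without 391 replicate 3, and over these 5 fits the differences were −1.22 to −0.99 with adjusted p of 0.069 to 0.14. With 391, Box1 and KO together against 569 and WT together, Csad fell by 1.74 ± 0.19, or 3.33-fold (limma adjusted p = 5e-05, exact two-sided permutation p = 0.0018 over 5005 regroupings), and it kept this call when any 1 array was left out. The regroupings moved single arrays, although arrays of a genotype belong together and the 569 and WT livers shared a slide. This permutation p, and each one below, therefore tells how the arrays spread and not how genotypes would. The pooled groups overlapped, since 569 replicate 2 (0.92) lay below all 3 Box1 livers.

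RefSeq lists a pair of starts for Csad, and their promoters are printed because Csad carries the largest change among the 10 genes. Each runs from 250 bases before the start to 50 bases after it, on the minus strand of GRCm38.p6, at chr15:102188994-102189293 and chr15:102205003-102205302. Capitals mark a match to the GC box GGGCGG or the CCAAT box CCAAT on either strand.
Csad promoter 1: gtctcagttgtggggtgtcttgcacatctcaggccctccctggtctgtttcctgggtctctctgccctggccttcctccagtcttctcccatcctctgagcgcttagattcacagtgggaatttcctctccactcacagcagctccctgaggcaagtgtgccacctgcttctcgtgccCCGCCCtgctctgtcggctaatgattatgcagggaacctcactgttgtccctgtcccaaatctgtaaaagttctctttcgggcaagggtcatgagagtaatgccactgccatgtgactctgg
Csad promoter 2: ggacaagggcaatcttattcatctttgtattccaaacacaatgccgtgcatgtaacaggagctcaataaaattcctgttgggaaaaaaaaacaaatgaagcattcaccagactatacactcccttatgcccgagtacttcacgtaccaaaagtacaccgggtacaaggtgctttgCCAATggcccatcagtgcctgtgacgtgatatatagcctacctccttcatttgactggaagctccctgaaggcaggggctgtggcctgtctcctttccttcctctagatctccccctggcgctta
The first holds a GC box 72 bases before the start, in reverse complement as CCGCCC, and the second a CCAAT box 75 bases before it. Of 32851 promoters of the same length, 35.7% hold a GC box and 37.4% a CCAAT box. The TATA box TATAAA is in 13.6% of these promoters and the STAT5 motif TTCNNNGAA in 8.3%, and the windows of the 5 genes that could be matched (Csad, Cbs, Gnmt, Bhmt and Ahcy, 6 promoters) hold neither.

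Cdo1, the dioxygenase one step before Csad, had ratios of 0.98, 0.93 and 0.64 in KO, 1, 1.08 and 1.07 in Box1, 1.20, 1.07 and 1.03 in 391, 1.28, 0.81 and 0.99 in 569, and 1.40, 0.77 and 0.85 in WT livers. The WT range covered all other arrays but 1, KO replicate 3. KO and WT differed by −0.22 (interval −0.66 to 0.23, limma adjusted p = 0.77), and the interval for Csad in the same comparison was −3.87 to −2.63. Gene Cdo1 was called in no liver comparison.

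Gnmt, which uses S-adenosylmethionine to methylate glycine, was higher in KO by both of its probes. Probe 1 gave ratios of 1.93, 1.95 and 1.55 in KO, 0.91, 0.97 and 1.28 in Box1, 1.20, 1.12 and 1.22 in 391, 0.79, 0.66 and 0.90 in 569, and 1, 0.74 and 0.63 in WT. The 3 KO livers lay above all others, and the 391 livers lay above all 569 and WT livers. Gnmt probe 1 rose by 1.22 ± 0.17 in KO against WT, or 2.32-fold (limma adjusted p = 0.0011), a call kept when any 1 array was left out. It differed from WT by 0.60 in 391 (limma adjusted p = 0.089, and 0.022 without WT replicate 1), by 0.43 in Box1 (adjusted p = 0.29, and a difference of 0.28 without WT replicate 3 or without Box1 replicate 3) and by 0.0031 in 569 (interval −0.35 to 0.36).

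Gnmt probe 2, which the platform assigns to another cDNA of the gene, gave 2.15, 1.63 and 1.01 in KO, 1.58, 1.15 and 1 in Box1, 1.91, 1.75 and 0.85 in 391, 0.92, 0.74 and 0.64 in 569, and 0.69, 0.43 and 0.77 in WT. Here KO, Box1 and 391 overlapped one another, and each lay above all WT livers. It rose by 1.32 ± 0.32 in KO (limma adjusted p = 0.048), and the call was lost without any 1 of the 3 WT arrays or without KO replicate 1 or 2 (differences 1.06 to 1.48, adjusted p of 0.068 to 0.21). In 391 it differed by 1.21 (limma adjusted p = 0.073), and this passed without 391 replicate 3 (1.58, adjusted p = 0.012). With 391, Box1 and KO together against 569 and WT together, both Gnmt probes rose, probe 1 by 0.75 ± 0.11 (limma adjusted p = 5.3e-04, exact permutation p = 0.0018) and probe 2 by 1.02 ± 0.21 (limma adjusted p = 0.0051, exact permutation p = 0.0012). Both calls were kept when any 1 array was left out. Over the 15 livers the probes correlated with r = 0.65, as a description of arrays that share groups.

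Ahcy, which clears the S-adenosylhomocysteine that methyl transfer leaves, gave different pictures by its 2 probes, though the platform assigns both to the same transcript. Probe 2 had ratios of 1.18, 1.19 and 1.01 in KO, 0.96, 1.05 and 1.01 in Box1, 1.18, 1 and 1.25 in 391, 0.75, 0.61 and 0.65 in 569, and 0.81, 0.56 and 0.76 in WT. Every KO, Box1 and 391 liver lay above every 569 and WT liver, a separation that 2.87% of all genes showed in either direction. The hepatocyte marker Alb separated in the same way, at 0.67 to 0.85 in 569 and WT livers and 0.93 to 1.47 in the others. The markers Apoa1 and Ttr overlapped, as did the mean log2 ratio of 8 hepatocyte markers (−0.47 to 0.02 against −0.23 to 0.29). The 569 and WT livers shared a slide, and the part of slide or hepatocyte content in the Ahcy values was not tested. Probe 1 had ratios of 0.95, 1.17 and 1.29 in KO, 0.99, 1.10 and 0.97 in Box1, 0.90, 0.95 and 1.06 in 391, 1.12, 0.98 and 1.28 in 569, and 1.03, 0.92 and 1 in WT, with all 5 genotypes overlapping. The probes correlated with r = −0.01 over the 15 livers.

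Ahcy probe 2 rose by 0.68 ± 0.13 in KO (1.60-fold, limma adjusted p = 0.014) and by 0.70 ± 0.13 in 391 (1.62-fold, limma adjusted p = 0.013) against WT. In Box1 it differed by 0.52 (limma adjusted p = 0.070, and 0.034 without WT replicate 1, where the difference was 0.62) and in 569 by −0.07 (interval −0.35 to 0.21). The KO call was lost without WT replicate 2 (0.52, adjusted p = 0.059), KO replicate 1 (0.64, adjusted p = 0.059) or KO replicate 2 (0.64, adjusted p = 0.073), and the 391 call without WT replicate 2 (0.54, adjusted p = 0.053). Against 569, probe 2 rose by 0.77 ± 0.13 in 391 (limma adjusted p = 0.0046). In the pooled comparison it rose by 0.67 ± 0.09, or 1.59-fold (limma adjusted p = 2e-04), and the exact permutation p of 2e-04 is the smallest that 5005 regroupings can give. Both of these calls were kept when any 1 array was left out. Without both 391 arrays that held pancreatic transcripts, the 391 difference from WT was 0.75 (adjusted p = 0.042). Ahcy probe 1 differed by −0.02 in the pooled comparison (interval −0.18 to 0.15, limma adjusted p = 0.94).

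The RefSeq promoters of Gnmt (chr17:46729116-46729415) and Ahcy (chr2:155074448-155074747), both on the minus strand of GRCm38.p6, are printed below. They were chosen because Gnmt by both probes and Ahcy by probe 2 alone were called higher in KO livers. Capitals mark the same motifs as for Csad.
Gnmt promoter: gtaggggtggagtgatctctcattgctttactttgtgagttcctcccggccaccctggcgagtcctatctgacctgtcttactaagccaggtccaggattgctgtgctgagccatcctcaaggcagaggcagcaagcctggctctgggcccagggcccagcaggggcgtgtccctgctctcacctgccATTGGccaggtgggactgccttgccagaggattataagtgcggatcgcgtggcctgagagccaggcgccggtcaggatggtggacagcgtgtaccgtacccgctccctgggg
Ahcy promoter: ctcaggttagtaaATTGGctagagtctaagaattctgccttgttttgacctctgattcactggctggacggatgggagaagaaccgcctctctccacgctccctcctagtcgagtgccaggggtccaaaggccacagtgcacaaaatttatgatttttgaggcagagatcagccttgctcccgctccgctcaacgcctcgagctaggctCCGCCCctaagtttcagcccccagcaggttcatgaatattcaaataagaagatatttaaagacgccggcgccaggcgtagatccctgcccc
The Gnmt window holds a CCAAT box, read as ATTGG, 62 bases before the start. The Ahcy window holds ATTGG 237 bases and a GC box, read as CCGCCC, 41 bases before the start.

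Bhmt, the betaine-dependent methyltransferase that remakes methionine, also differed between its probes. Probe 1 gave 1.11, 1.18 and 1 in KO, 1.04, 1.14 and 0.61 in Box1, 2.18, 1.31 and 1.35 in 391, 0.97, 0.54 and 0.63 in 569, and 0.87, 0.20 and 0.64 in WT. The 391 livers lay above all others, and WT replicate 2 lay far below the other 14. Bhmt probe 1 rose by 1.70 ± 0.41 in 391 against WT (3.26-fold, limma adjusted p = 0.048). The call was lost without WT replicate 2 (1.07, adjusted p = 0.13), WT replicate 3 or any 1 of the 391 replicates (adjusted p of 0.062 to 0.17), and without both 391 arrays that held pancreatic transcripts the difference was 2.18 (adjusted p = 0.062). In KO it differed by 1.19 (limma adjusted p = 0.19) and in Box1 by 0.90 (adjusted p = 0.39), and without WT replicate 2 by 0.55 in KO and 0.27 in Box1.

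In the pooled comparison Bhmt probe 1 rose by 1.002 ± 0.27 (limma adjusted p = 0.025, exact permutation p = 0.0030). This call was lost without 569 replicate 2 (0.91, adjusted p = 0.082), 569 replicate 3 (0.97, adjusted p = 0.061) or Box1 replicate 2 (0.94, adjusted p = 0.054). Bhmt probe 2 gave 1.68, 1 and 1.72 in KO, 0.87, 1.12 and 0.84 in Box1, 0.77, 2.79 and 1.22 in 391, 1.47, 1.34 and 0.78 in 569, and 0.89, 0.80 and 0.79 in WT. It was called in no comparison (pooled difference 0.33, interval −0.16 to 0.82, limma adjusted p = 0.50), and its highest ratio lay in 391 replicate 2, which also held pancreatic and muscle transcripts.

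Mat1a, which opens the cycle by making S-adenosylmethionine, had the narrowest ratios of the 10 genes, from 0.88 to 1.15 over the 15 livers. KO and WT differed by 0.08, with an interval of −0.11 to 0.27, and 391 and WT by 0.18, with an interval of −0.01 to 0.37. Both intervals end below the lower bound of the Gnmt probe 1 interval in KO.

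**Figure D2:**
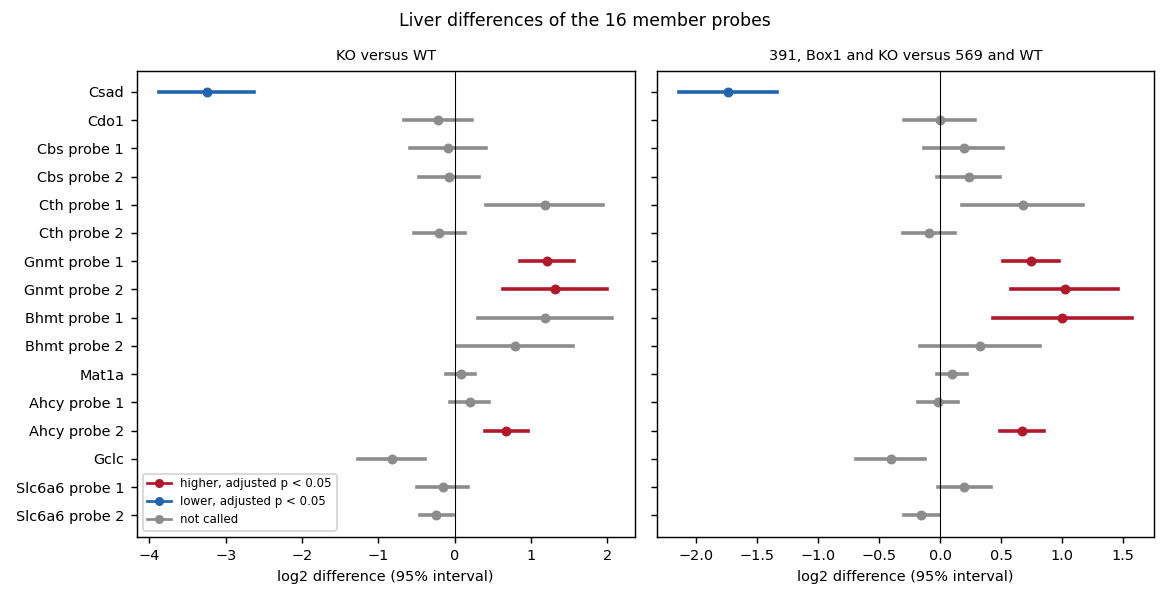
Log2 differences (x axis) of the 16 probes in liver for KO against WT (left) and for 391, Box1 and KO together against 569 and WT together (right), with 95% intervals and colours for adjusted p under 0.05. Csad stands lower in both panels, Gnmt by both probes and Ahcy by probe 2 stand higher, and the x scales of the panels differ.

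With all arrays in the fit, neither of the enzymes that lead homocysteine to cysteine was called in a comparison with WT. Cth, the lyase that releases cysteine, gave by probe 1 ratios of 1.43, 1.85 and 1.27 in KO, 1.03, 0.72 and 1.06 in Box1, 2.40, 1 and 0.66 in 391, 1.17, 0.70 and 0.66 in 569, and 0.78, 0.74 and 0.50 in WT. The KO livers lay above all WT livers, with a difference of 1.18 (interval 0.41 to 1.95, limma adjusted p = 0.13, and 0.0098 when KO and WT were fitted alone), and the 391 livers ranged the widest. Between 391 and WT, Cth probe 1 differed by 0.82 (limma adjusted p = 0.36). This difference was 0.30 without 391 replicate 1 and 1.23 without 391 replicate 3, and without both 391 arrays that held pancreatic transcripts, which leaves the highest of the 391 livers, it passed the test at 1.86 (adjusted p = 0.0087). The pooled difference of 0.68 did not pass the test (limma adjusted p = 0.087, exact permutation p = 0.032), but it passed without 569 replicate 1 (0.81, adjusted p = 0.047) or 391 replicate 3 (0.81, adjusted p = 0.016), and without both 391 arrays that held pancreatic transcripts (1.02, adjusted p = 0.0011). Cth probe 2 ran from 0.78 to 1.47 over the 15 livers and differed between KO and WT by −0.20 (interval −0.54 to 0.13), so the 2 Cth probes differ in sign there. They correlated with r = −0.32.

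Cbs, which condenses homocysteine with serine, gave by probe 2 ratios of 1, 1.25 and 0.74 in KO, 0.92, 0.82 and 1.18 in Box1, 1.40, 1.05 and 1.50 in 391, 0.91, 0.72 and 0.80 in 569, and 1.15, 1.02 and 0.92 in WT. The 391 livers lay above the 569 livers. Between these truncations probe 2 rose by 0.69 ± 0.19 in 391 (limma adjusted p = 0.046), and probe 1 differed by 0.69 as well (limma adjusted p = 0.12). The probe 2 call was lost without 569 replicate 2 or 3 or without 391 replicate 1 or 3 (differences 0.59 to 0.69, adjusted p of 0.12 to 0.19). Probe 1 gave 1, 1.19 and 0.74 in KO, 0.71, 0.68 and 1.48 in Box1, 1.35, 1.29 and 1.32 in 391, 0.89, 0.83 and 0.74 in 569, and 1.10, 1.11 and 0.86 in WT, and the probes correlated with r = 0.86. Between KO and WT, Cbs differed by −0.08 by probe 1 (interval −0.59 to 0.42) and by −0.07 by probe 2 (interval −0.47 to 0.32).

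Gclc, the catalytic subunit of the enzyme that commits cysteine to glutathione, had ratios of 0.76, 0.62 and 0.77 in KO, 0.94, 1.02 and 1.43 in Box1, 0.98, 0.63 and 0.88 in 391, 1, 1.09 and 1.02 in 569, and 1.78, 1.05 and 1.08 in WT. The KO and 391 livers all lay below the 569 and WT livers. KO and WT differed by −0.83 (interval −1.26 to −0.39), just outside the threshold (limma adjusted p = 0.054), and 391 and WT by −0.63 (adjusted p = 0.16). The KO difference passed with quantile normalization (−0.89, adjusted p = 0.015), with array weights (−0.78, adjusted p = 0.047) and over probes with 1 symbol (adjusted p = 0.047). The 391 difference was −0.38 without WT replicate 1 and −0.37 without both 391 arrays that held pancreatic transcripts (adjusted p = 0.41 and 0.67). The pooled difference was −0.40 (limma adjusted p = 0.072, exact permutation p = 0.048), and it passed without 391 replicate 1 (−0.45, adjusted p = 0.048) or Box1 replicate 3 (−0.46, adjusted p = 0.036). Gclc and Csad correlated with r = 0.73 over the 15 livers, as a description of arrays that share groups and slides.

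Slc6a6, the taurine carrier of the cell membrane, gave by probe 1 ratios of 1, 1.28 and 0.92 in KO, 1.02, 1.07 and 1.15 in Box1, 0.95, 0.85 and 1.02 in 391, 0.76, 0.56 and 0.72 in 569, and 1.46, 1.19 and 0.94 in WT. The 569 livers lay below all other livers. The F test called this probe (limma adjusted p = 0.032), while 569 and WT, which shared a slide, differed by −0.80 without passing (interval −1.14 to −0.47, limma adjusted p = 0.21). Slc6a6 probe 2 ran from 0.87 to 1.35 and differed between 569 and WT by −0.15 (interval −0.37 to 0.07, limma adjusted p = 0.84).

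Other genes of these pathways were compared in liver between 391, Box1 and KO together and 569 and WT together, a comparison in which 13.9% of all genes rose and 1.36% fell, with a median difference of 0.04 over all genes. Here and below, each pathway gene is given by its probe of largest SD alone, a rule that can favour probes that differ between genotypes. Other probes of these genes, where there are any, are not given and may differ. Of 20 other genes of the methionine cycle and methyl transfer, 3 rose and 0 fell, with a median difference of 0.17. These were Bhmt2, another homocysteine methyltransferase, by 0.45, Nnmt, which methylates nicotinamide, by 1.08, and the choline dehydrogenase Chdh by 0.38. Of 17 genes of cysteine breakdown, sulphide and sulphate handling and taurine use, 5 rose and 0 fell, with a median of 0.26. The sulphite oxidase Suox rose by 0.72 (limma adjusted p = 0.0011), Papss2, which makes the donor of sulphate groups, by 0.67, the transaminase Got2 by 0.64, the sulphurtransferase Mpst by 0.39, and Slc27a5, which activates bile acids for conjugation, by 0.26.

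Of 16 other genes of glutathione synthesis and turnover, 1 rose and 0 fell in the pooled comparison, with a median of 0.09. It was Ggct, a cyclotransferase that breaks down gamma-glutamyl peptides, up by 0.84 (limma adjusted p = 2.9e-04). Of 16 carriers of amino acids and taurine, 2 rose and 0 fell, namely Slc6a12, which carries betaine, by 1.09 (limma adjusted p = 1.4e-04) and Slc38a4, which carries neutral amino acids, by 0.55. Of 12 regulators, 1 rose and 0 fell: Keap1, which holds the stress factor Nrf2 in check, by 0.53. Between 391 and 569, genes of these lists were called in both directions. Chac2 of the glutathione list was lower in 391 (difference −0.45, limma adjusted p = 0.049), a call lost in 10 of 13 alternatives. Bhmt2, Mpst, Suox, Ggct, Slc6a12, Slc6a8, Slc7a5, Slc38a4 and Keap1 were higher there. The pooled call of Mpst was lost in 1 of 21 alternatives of processing or arrays (limma adjusted p = 0.15). The pooled calls of Nnmt, Slc27a5 and Got2 were lost when single arrays were left out. Nnmt lost its call without WT replicate 2 or 3, 569 replicate 2 or 3, any 1 of the Box1 replicates, KO replicate 1 or 2 or 391 replicate 1 or 2 (differences 0.92 to 1.12). Slc27a5 lost its call without WT replicate 2 or 3, 569 replicate 2 or 3, any 1 of the Box1 replicates, KO replicate 1 or 3 or 391 replicate 1 or 3 (differences 0.21 to 0.27), and Got2 without WT replicate 3 or 569 replicate 2 (differences 0.60 and 0.63). Without both 391 arrays that held pancreatic transcripts, the calls of Got2 (0.43, adjusted p = 0.054) and Slc27a5 (0.27, adjusted p = 0.053) were lost as well, and the part of these transcripts in the values was not tested.

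Against WT alone, Ggct rose in KO by 0.87 (limma adjusted p = 0.017), in Box1 by 0.93 (adjusted p = 0.014) and in 391 by 1.12 (adjusted p = 0.0039). Slc6a12 rose in KO by 1.30 (limma adjusted p = 0.0032) and in 391 by 1.12 (adjusted p = 0.011). Papss2 rose in KO by 1.11 (limma adjusted p = 0.011) and Slc38a4 in KO by 0.60 (adjusted p = 0.049). Of these, the 391 call of Ggct and the KO call of Slc6a12 were kept when any 1 array was left out. The KO call of Ggct was lost without WT replicate 3 or KO replicate 1 or 2 (differences 0.79 to 0.85), its Box1 call without WT replicate 3 or Box1 replicate 1 or 3 (0.81 to 0.86), and the 391 call of Slc6a12 without WT replicate 2 (0.94, adjusted p = 0.063). The KO call of Papss2 was lost without WT replicate 2 or KO replicate 3 (0.96 and 0.99), and that of Slc38a4 without any 1 of the 3 WT or 3 KO arrays (0.52 to 0.67).

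**Figure D3:**
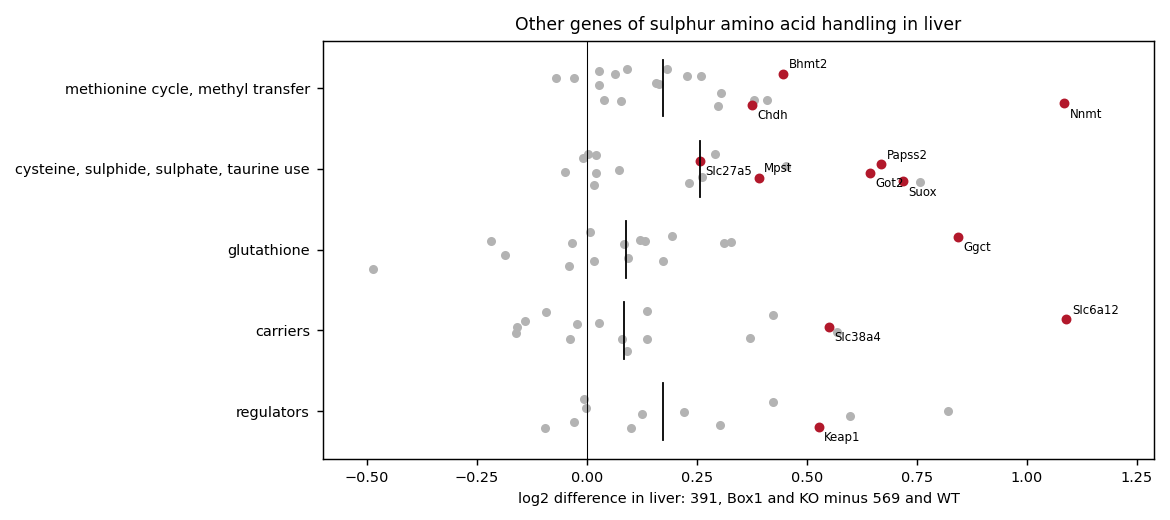
Log2 difference in liver of 391, Box1 and KO together minus 569 and WT together (x axis) for the other genes of each list (1 point a gene, by its probe of largest SD, spread down the page for sight only), with red for adjusted p under 0.05 and a bar at the list median. All called genes lie right of 0, from Slc27a5 at 0.26 to Slc6a12 at 1.09.

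For each gene with a probe that the F test called, the 5 genes most like its probe of larger SD over the 15 livers were taken. For Gnmt the F test called probe 1 (limma adjusted p = 0.0021) and not probe 2, which has the larger SD (adjusted p = 0.051). The genes whose log2 ratios were most like those of Csad were Olfr1188 (Pearson r = 0.91), Unc13b (0.91), Tspan33 (0.88), Id3 (0.87) and Ctsc (0.86). Those most like Gnmt, by probe 2, were Nme7, Ifna5, Cps1, Pptc7 and Per1, with r between 0.90 and 0.93. Those most like Ahcy, by probe 2, were Slc20a2, Abat, Smarcad1, Gpt and Pgls, with r between 0.96 and 0.97. Those most like Slc6a6, by probe 1, were Rnf166, Tax1bp3, Fam117b, Mrps7 and Slc4a2, with r between 0.87 and 0.88. Among the 10 genes, Bhmt and Ahcy correlated with r = 0.82, Gnmt with Ahcy and with Bhmt with r = 0.79 each, and Csad with Ahcy with r = −0.67. The points of these correlations share groups and slides, and no p is given. The most alike genes were picked for the highest r among all named genes. Whether their probes gave signal over background is unknown, and shared regulation was not tested.

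In subcutaneous fat 0 of the 10 genes were called in any comparison by limma, and 1 gene at most had an unadjusted p under 0.05 in a comparison. Of all named genes, 0% were called in KO against WT, 0.00515% in Box1, 0.0206% in 391 and 0% in 569, and 0.0412% in the pooled comparison. Between mutants it was 0.0155% for 391 against 569, 0.0309% for KO against 391, 0% for KO against Box1 and 0.0206% for Box1 against 391. Fat ratios of Csad were 1, 1.33 and 1.21 in KO, 1.08, 0.87 and 0.84 in Box1, 0.76, 0.97 and 0.70 in 391, 1.25, 1.22 and 0.09 in 569, and 1.01, 1.48 and 0.90 in WT. KO and WT overlapped, with a difference of 0.09 and an interval of −1.53 to 1.70. The width of that interval comes from the spread within all fat genotypes, not of KO and WT alone. The SD of the log2 ratios was 0.21 in KO, 0.38 in WT and 2.18 in 569. In 569, 1 array, replicate 3, lay far below the others. That array was low in all 7 adipocyte markers (mean log2 ratio −2.51, against −0.39 to 0.50 in the other fat arrays, Adipoq ratio 0.21) in all 4 macrophage markers (mean −2.66) and in both erythroid markers (mean −1.93), and high in all 12 skeletal muscle markers (mean 4.66, against −2.64 to 3.87 in the other fat arrays). KO replicate 2, Box1 replicate 3 and 569 replicate 1, with Csad ratios of 1.33, 0.84 and 1.25, came next in muscle markers (means of 3.001 to 3.87), and KO replicate 3 (1.25) and 391 replicate 3 (1.43) followed. The part of other tissues in the Csad value of 569 replicate 3 was not tested. Between 569 and WT, Csad in fat differed by −1.10, and by 0.16 without this array.

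Csad's KO difference was −3.25 in liver and 0.09 in fat, and the contrast between the tissues was −3.33 ± 0.84 (interval −5.07 to −1.60), which did not pass the test (limma adjusted p = 0.11). The SE of the contrasts between tissues comes from the spread within all groups, that of fat 569 included. In the pooled comparison the contrast was −2.07 ± 0.54 (limma adjusted p = 0.074), and it passed without fat 569 replicate 1 (−2.39, adjusted p = 0.023), replicate 2 (−2.38, adjusted p = 0.017) or replicate 3 (−1.44, adjusted p = 0.0023). In these tests of liver against fat, 0 of the 10 genes were called by limma for KO, Box1, 391, 569 or the pooled comparison, beside 0.536%, 0.278%, 0.361%, 0% and 1.4% of all genes. The pooled count became 1 or 2 without any 1 of the fat 569 replicates, fat Box1 replicate 2, liver 391 replicate 3 or liver KO replicate 3, and the 391 count became 1 without liver 391 replicate 3. The contrasts were also fitted without liver 391 replicates 2 and 3 (pancreas), fat 569 replicate 3 (low adipocyte markers) and fat Box1 and WT replicates 2 (hepatocyte markers), 5 arrays chosen after seeing the data. The KO contrast of Csad was then −3.55 (adjusted p = 7.5e-05) and the pooled contrast −1.53 (adjusted p = 0.0055). Without the 3 fat arrays that came next to 569 replicate 3 in muscle markers as well, 8 arrays in all and also chosen after seeing the data, they were −3.45 (adjusted p = 5.1e-04) and −1.56 (adjusted p = 0.026).

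**Figure D4:**
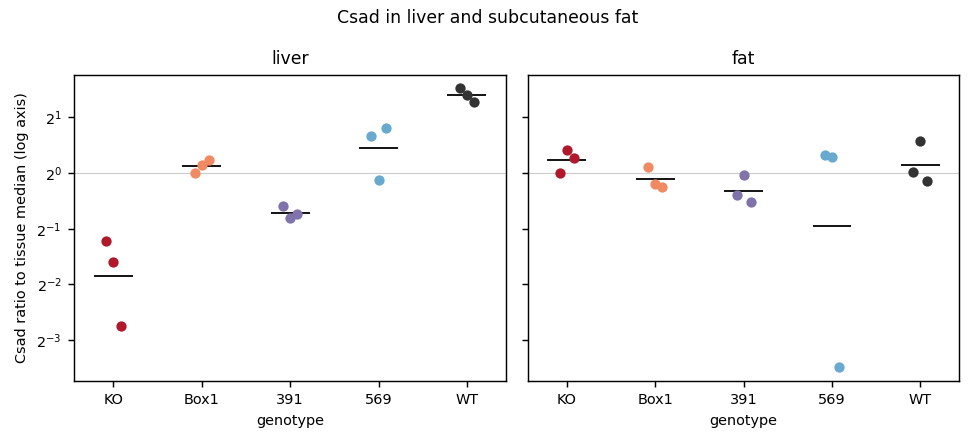
Ratio of Csad to the tissue median (y axis, log scale) by genotype in liver (left) and fat (right), with 1 point an array and bars for the mean log2 ratio of 3 arrays. In liver the KO arrays lie at 0.15 to 0.43 and the WT arrays at 2.41 to 2.86, while in fat all arrays but 1 lie between 0.70 and 1.48.

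Mat1a, a gene of hepatocytes, had the widest fat ratios of the 10 genes. They were 0.81, 4.01 and 2 in KO, 0.72, 61.57 and 2.19 in Box1, 0.91, 0.77 and 0.63 in 391, 0.95, 1.28 and 1 in 569, and 0.67, 25.17 and 4.62 in WT. The 2 highest arrays, Box1 replicate 2 and WT replicate 2, were also the highest in the mean of 8 hepatocyte markers (2.20 and 1.52 on the log2 scale), with 4 of 8 markers above 1, Ttr at ratios of 41.4 and 13.96 and Alb at 1.32 and 0.95. In Box1 replicate 2, Gnmt probe 1 stood at 3.75, Bhmt probe 1 at 4.93 and Ahcy probe 2 at 4.29. The part of liver RNA in these values was not tested. Cdo1, which fat also expresses, had fat ratios of 1.01, 1.65 and 1.63 in KO, 1.59, 0.61 and 0.71 in Box1, 0.52, 1 and 0.70 in 391, 1.29, 1.04 and 0.20 in 569, and 0.92, 1.75 and 0.56 in WT, with its lowest value in the same array as Csad.

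**Figure D5:**
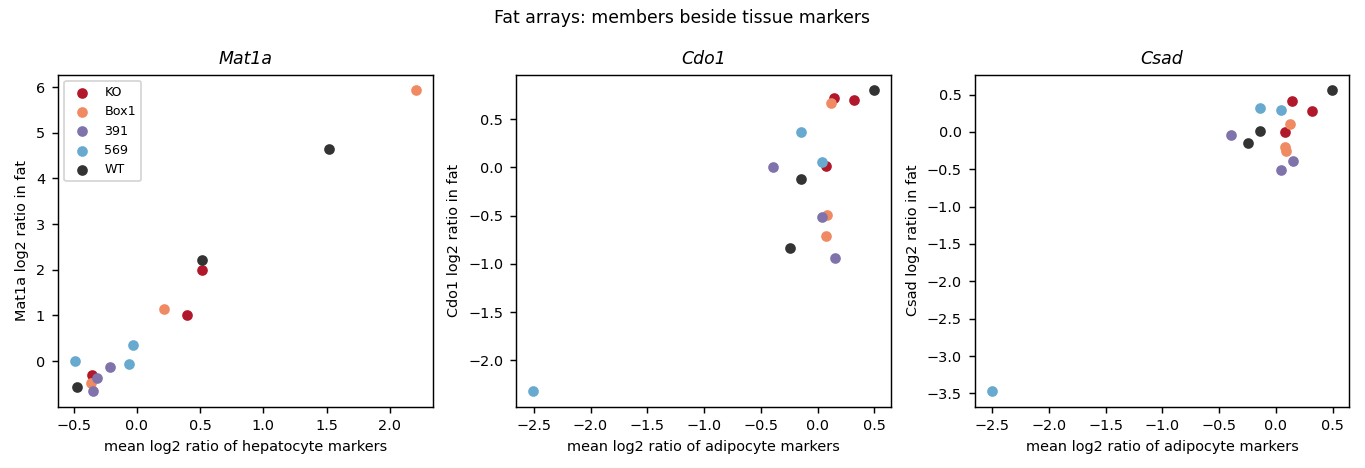
Fat arrays, 1 point each, coloured by genotype: log2 ratio of Mat1a against the mean log2 ratio of hepatocyte markers (left), and of Cdo1 (middle) and Csad (right) against that of adipocyte markers. The arrays with the highest Mat1a, at ratios of 61.57 and 25.17, are those with the highest hepatocyte markers, and 1 array of 569 lies lowest in adipocyte markers, Cdo1 and Csad.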

How the data were processed

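Total RNA of frozen liver and subcutaneous fat was run on Illumina bead arrays, per the labels' protocols. The authors' normalization was not given in the sources used here, nor was their software. Each deposited value is a ratio: in each tissue the median of every one of the 46643 probes over its 15 arrays is exactly 1, read from the values, and they carry 2 decimals from 0.01 upward. Signal over background is therefore unknown, and 3 arrays per group limit the precision.

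Ratios were taken to log2 and fitted with limma 3.58.1 in R 4.3.3, 1 fit per tissue over all 5 genotypes (lmFit, contrasts.fit, eBayes) and all 30 arrays in 1 fit for liver against fat. Tests were two-sided, adjusted by Benjamini-Hochberg over all probes, with a threshold of 0.05 on the adjusted p. The plan had foreseen a filter on low values, which a ratio does not allow, so all probes were kept. Of 32794 probes with 1 platform symbol, 32722 had a gene in RefSeq (GRCm38.p6), 55 probes had several symbols and 13794 none. Promoter sequences are RefSeq's, and of the 10 genes 5 matched. The fit was tested on simulated data.

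The 10 genes, the pathway and marker lists, the comparisons and the alternatives were chosen with earlier results of these data known. Named beside the 10 genes are pathway genes called in a liver comparison with WT, at most 8 per list, and the 5 genes most correlated with each gene that has a probe called by the F test, taken by its probe of larger SD. Pathway genes called in the pooled comparison alone were named after their values were seen. Alternatives were quantile normalization, an offset of 0.1, probes with 1 symbol, array weights, a robust prior, fits of 2 groups alone, leaving out single arrays and the mean of a gene's probes. Replicate numbers follow the order of the samples and pair nothing.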

Additional observations from a re-analysis of the deposited data

How the results depend on the processing

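Counts of the 10 genes called in liver moved by more than 1.5 times as follows. For 391 against 569 (2) the count was 1 with quantile normalization and with a robust prior, and 1 to 2 without single arrays. For Box1 against WT (1) it was 2 with array weights and when the 2 groups were fitted alone, 0 with a robust prior and with the mean of a gene's probes, and 0 to 1 without single arrays. For 391 against WT (3) it was 1 in a fit of the 2 groups alone, and 1 to 3 without single arrays. For KO against WT (3) it was 1 to 3, and for KO against Box1 (1) 0 to 1, without single arrays. For liver against fat (0 each), KO gave 1 with quantile normalization, an offset of 0.1, array weights or without the 5 arrays that stood apart in markers. The pooled contrast between tissues gave 2, 1, 2 and 3 under those settings and 0 to 2 without single arrays, and the 391 contrast gave 1 without those 5 arrays and 0 to 1 without single arrays. Without 8 arrays, these 5 and the 3 fat arrays that came next in muscle markers, the KO, pooled and 391 contrasts gave 1, 2 and 1. All counts in fat were 0 under every alternative. The cause of these changes was not tested. In liver, Csad in KO (12 alternatives), in 391 (13) and in the pooled comparison (22) kept its call in all of them, as did both Gnmt probes and Ahcy probe 2 in the pooled comparison (22 each). Among the 22 was the exact permutation test of single arrays, whose unadjusted p was held against the same threshold. The call of Csad in Box1 was lost in 8 of 12 alternatives, and that of Csad between 391 and 569 in 9 of 13. Quantile normalization was among them for Box1 (−1.28, limma adjusted p = 0.15) and for 391 against 569 (−1.25, limma adjusted p = 0.15). In fat, Csad's difference of −1.10 between 569 and WT ran from −1.74 to 0.16 when single arrays were left out, and it turned to 0.16 without 569 replicate 3. No paired analysis was possible because the labels give no replicate numbers. A fit with slide as a random block was not run: each genotype of a tissue lies on 1 slide, so the slide cannot be estimated apart from the genotype. Signal over background is unknown for every probe, which limits what a ratio near 1 can show.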
